A study of Arabidopsis thaliana with 6 samples.

Results

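The CIN-type TCP genes of *Arabidopsis thaliana* encode 8 transcription factors of the class II branch of the TCP family, named after the CINCINNATA gene of snapdragon. They are TCP2 (AT4G18390), TCP3 (AT1G53230), TCP4 (AT3G15030), TCP10 (AT2G31070), TCP24 (AT1G30210), TCP5 (AT5G60970), TCP13 (AT3G02150) and TCP17 (AT5G08070). The genes were chosen as a named gene family, with earlier results of these data known, and are 8 of 27444 protein-coding genes on the 5 nuclear chromosomes. Each was given the peaks whose summit lay between 2 kb upstream of the transcription start site (TSS) and the end of the gene, and 21 peaks met this rule. A peak is a stretch of genome where chromatin pulled down with a tagged protein gave more reads than the input, and its summit is the base with the highest signal.

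CIN-type TCP proteins slow cell proliferation and promote differentiation in young leaves, and plants that lose several of them form crinkled leaves with excess growth at the margin. The messages of TCP2, TCP3, TCP4, TCP10 and TCP24 are cleaved under the direction of the microRNA miR319. TCP5, TCP13 and TCP17 form a second group that escapes this microRNA and acts in leaf margins and petals.

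The 2 proteins tested, TT1 (TRANSPARENT TESTA 1) and NTT (NO TRANSMITTING TRACT), are zinc finger transcription factors of the WIP family, normally made in the seed coat, and in the transmitting tract and root tip, respectively. Both lines were in the Col-0 accession and carried a GFP fusion behind the pOp6 promoter, Dex:TT1-GFP or Dex:NTT-GFP, which a dexamethasone (Dex) activated driver under the 35S promoter switches on throughout the plant. Seedlings of both lines were 7 days old, received 1 µM Dex for 8 h and were used for ChIP-seq with an antibody against GFP, in pools of about 100 seedlings. The 6 libraries comprised 1 ChIP and 1 input of Dex:TT1-GFP and 2 ChIPs and 2 inputs of Dex:NTT-GFP, so that the sites are those of tagged, induced proteins in cells that mostly lack them. A line with GFP alone or without Dex was not analysed here.

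The TT1 list held 12908 peaks, and those of NTT replicates 1 and 2 held 16167 and 7447. Each peak carries a fold enrichment, a ratio that says how far the ChIP reads at the summit exceeded the local background, and a −log10 q-value, for which the lowest deposited values were 9.01 to 9.41. Median fold enrichments were 3.99, 5.90 and 3.94 in the same order. Since the depth of the libraries is unknown, fold enrichment is set against the other peaks of the same library as a percentile, the share of those peaks with a lower value. TT1 has 1 library and no replicate error, and NTT has 2, from pools of seedlings that, per the methods, were raised on separate dishes and induced separately. With these numbers no test was possible between the proteins, and the values below are a description.

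In the full peak lists, which differ in length, more of the CIN-type TCP genes had an NTT peak than a TT1 peak. NTT replicate 1 had a peak at 5 of 8 genes (62.5%), where 44.7% of all protein-coding genes had one. NTT replicate 2, with the fewest peaks, had one at 6 of 8 (75%), against 26.8% of all genes. TT1 had peaks at TCP4 and TCP13 only, 2 of 8 (25%), where 38.3% of all genes had one. With 8 genes, the counts of TT1 and NTT replicate 1 lay close to the shares of all genes, and that of NTT replicate 2 lay above it.

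With lists of equal length, the 7447 most significant peaks of each library, NTT replicate 1 had a peak at 2 of 8 genes and TT1 at 2 of 8, each against 25.1% of all genes. These were TCP4 and TCP13 in both, and both NTT libraries then shared the same pair, 2 of 8 against 18.5%. The difference in count between TT1 and NTT replicate 1 was therefore absent at equal list length. No peak of NTT replicate 2 was removed, since 7447 is the length of its list. Its count of 6 of 8, against 26.8% of all genes, therefore could not change.

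Peaks in both NTT libraries were present at TCP2, TCP4, TCP10, TCP24 and TCP13, 5 of 8 against 24.4% of all genes. At 4 of the 8 the summits of both libraries also lay within 100 bp of each other, against 21.6% of all genes, the exception being TCP2. TCP4 and TCP13 had peaks in all 3 libraries, 2 of 8 against 20.2%, and 6 of 8 had a peak in any library against 52.1%. TCP3 and TCP17 had none.

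The counts for NTT fell when weak peaks were left out. With peaks of a −log10 q of at least 20 alone, NTT replicate 1 had a peak at 3 of 8 genes against 41.1% of all genes and NTT replicate 2 at 4 of 8 against 16.6%. Both NTT libraries then shared TCP4 and TCP13, 2 of 8 against 15.8%. TT1 stayed at 2 of 8, against 35.8%. Under this threshold, too, NTT replicate 2 was the library whose count lay above the share of all genes.

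**Figure D1:**
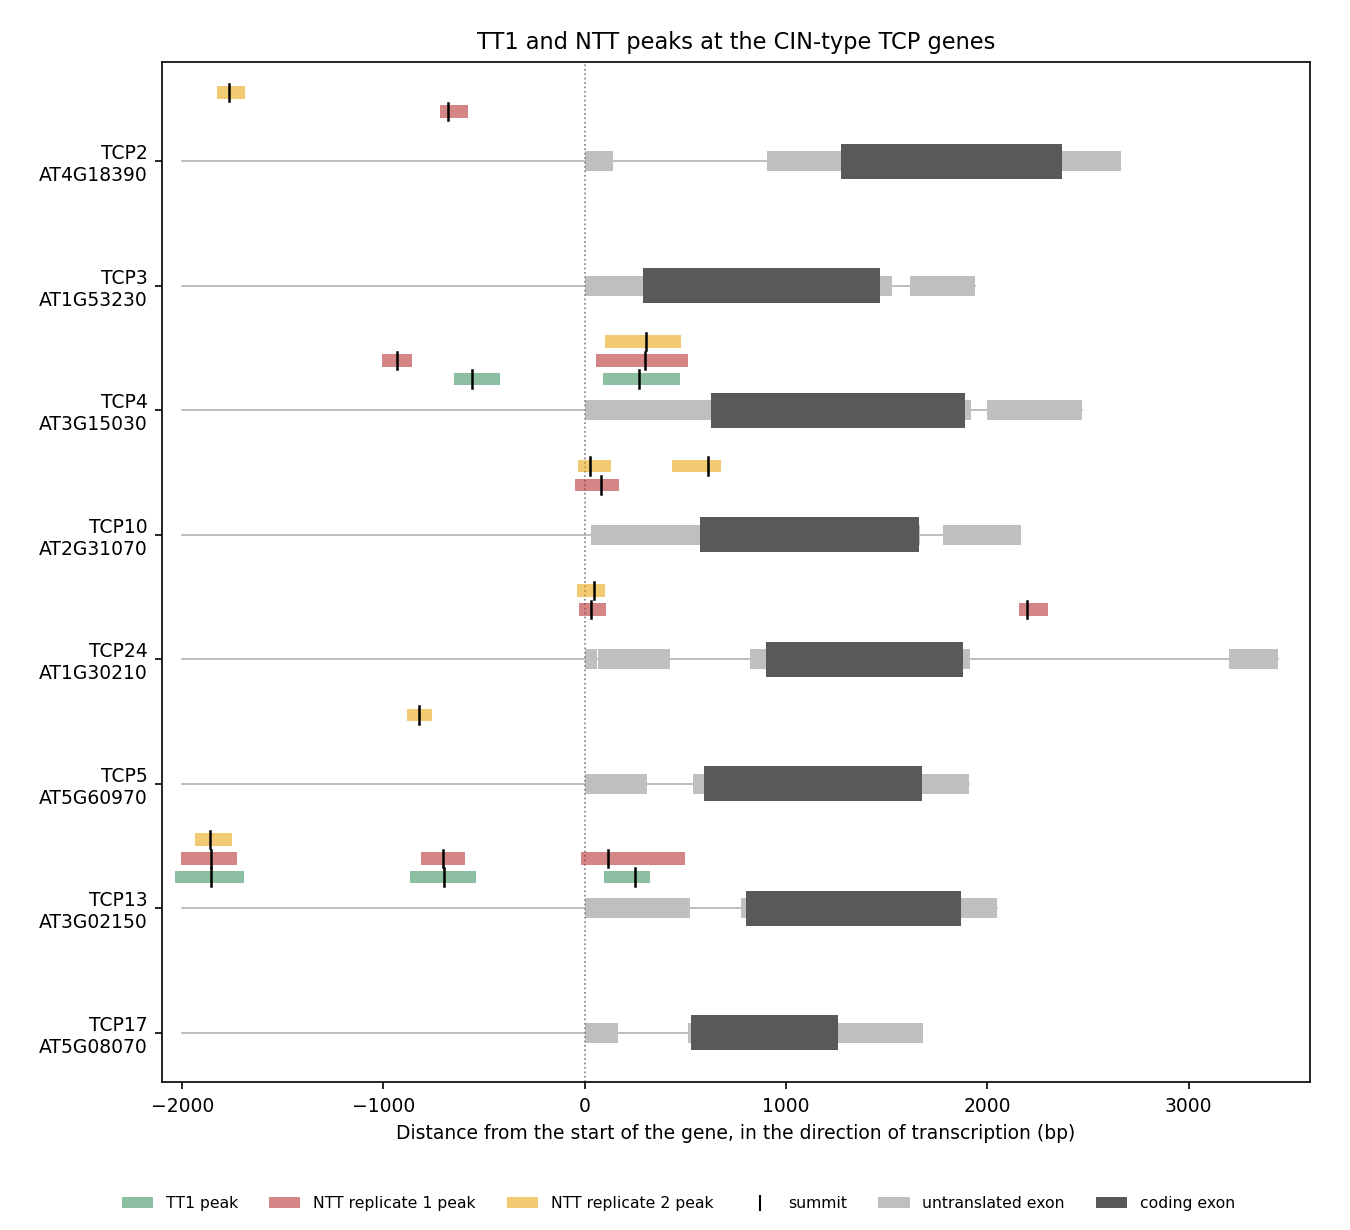
Map of the TT1 and NTT peaks at the 8 CIN-type TCP genes, with distance from the start of the gene in bp on the x axis, peaks as coloured bars, summits as black ticks, and the exons of all annotated transcripts in grey (untranslated) and dark grey (coding). Peaks of different libraries line up in the 5′ UTR of TCP4, at the start of TCP10 and TCP24, and at 2 places upstream of TCP13, while TCP3 and TCP17 carry none.

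The 21 peaks comprised 5 of TT1, 9 of NTT replicate 1 and 7 of NTT replicate 2. Joining summits of a gene that lay within 100 bp of each other gave 14 sites. Of these, 5 were seen in more than 1 library: 2 in all 3 libraries, 2 in both NTT libraries and 1 in TT1 and NTT replicate 1. The other 9 were seen in a single library, 4 of them in NTT replicate 1, 3 in NTT replicate 2 and 2 in TT1. Several of the single-library sites lay at genes that also had a site shared between libraries. Of the 5 genes with peaks in both NTT libraries, 4 had summits of both within 100 bp. The split of sites over all genes is not given here, so this split has none to be set against.

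By annotation, 10 of the 21 summits lay upstream of the gene, 8 in a 5′ UTR, 1 in a coding exon, 1 in an intron and 1 just before the start of the annotated transcript. In a 5′ UTR lay 2 of 5 summits of TT1, 4 of 9 of NTT replicate 1 and 2 of 7 of NTT replicate 2. Over the windows of all protein-coding genes the 5′ UTR held 21.4%, 24.4% and 28.1% of summits, respectively. No summit lay in a 3′ UTR of these genes.

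TCP4, the best studied member of the miR319 group and a promoter of leaf maturation, carried the strongest peak. Its gene lies on the plus strand at chr3:5061681-5064152 in the TAIR10.1 assembly, and its 5′ UTR runs to a coding start 627 bp downstream of the TSS. In NTT replicate 1 the summit was at +301 bp, with a fold enrichment of 12.1 and a −log10 q of 136, which ranked 337 of 16167 peaks (percentile 97.9). In NTT replicate 2 the summit was at +302 bp, with a fold enrichment of 4.49 and a −log10 q of 37.7 (percentile 72.2). The 2 NTT summits were 1 bp apart.

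The TT1 summit in the 5′ UTR of TCP4 was at +268 bp, 33 to 34 bp from those of NTT, with a fold enrichment of 3.61 and a percentile of 36.7. All 3 libraries therefore marked the same part of the leader, high among the peaks of both NTT libraries and below the median of TT1. Ranked by −log10 q in place of fold enrichment, the same TT1 peak was at percentile 60.3. TCP4 also had 2 upstream peaks, each in a single library: a TT1 summit at −558 bp with a fold enrichment of 3.31 (percentile 24.2) and an NTT replicate 1 summit at −931 bp with 5.01 (percentile 32.4). These were 373 bp apart and did not overlap.

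The sequence beside the NTT summits in the TCP4 leader holds a GAGA repeat, searched as GAGAGAG on both strands, which reads CTCTCTC on the strand of the gene. Within this leader, 4 matches lay within 100 bp of each NTT summit, the nearest at 8 and 7 bp, and 3 within 100 bp of the TT1 summit, the nearest at 29 bp. The same repeat lay near the NTT summits of TCP10 and TCP24, and the 3 stretches are shown together, on the strand of the gene with the repeat in capitals, because these are the 3 genes of the miR319 group where the NTT libraries coincide.
TCP4, chr3:5061980-5062009, plus strand, +299 to +328 bp: tttctctcttCTCTCTCTCaccttcgcttg
TCP10, chr2:13222551-13222580, minus strand, +62 to +91 bp: taatagtataCTCTCTCTCttttttttcct
TCP24, chr1:10630530-10630559, minus strand, +71 to +100 bp: atatctctagcCTCTCTCcccatttcccat

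TCP10, another miR319-regulated gene (chr2:13220478-13222642, minus strand), had NTT peaks at its start and no TT1 peak. The NTT replicate 1 summit was at +79 bp with a fold enrichment of 5.16 (percentile 35.9), within the 9 bases in capitals above. The NTT replicate 2 summit was at +26 bp with 3.37 (percentile 20.8), 53 bp away and 7 bp before the start of the annotated transcript, since the gene record begins 33 bp before it. Both peaks were in the lower part of their library.

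Within 100 bp of the NTT replicate 1 summit of TCP10 there were 13 overlapping matches of the GAGA repeat. Most of them belonged to an alternating CT run of 28 bp from +152 to +179 bp, the longest within 400 bp of the 8 starts. NTT replicate 2 had a further peak at +610 bp, in the coding exon, with a fold enrichment of 2.88 (percentile 4.58), among the weakest of that library. Its summit was 82 bp from the only match of the long TCP site near any of the 21 summits.

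TCP24 (chr1:10627185-10630630, minus strand), the third of these genes, had NTT summits at +32 bp (replicate 1, fold enrichment 4.17, percentile 13.1) and +48 bp (replicate 2, fold enrichment 3.79, percentile 42.4). They were 16 bp apart. Both fall in the first exon of 1 of the 2 annotated transcripts, which ends at +58 bp, and just before the start of the other at +64 bp. The GAGA repeat was 50 and 34 bp away. NTT replicate 1 had a second peak in the long last intron, at +2198 bp, with a fold enrichment of 3.53 (percentile 3), and TT1 had none.

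TCP2 (chr4:10162922-10165583, minus strand) counts as a gene with peaks in both NTT libraries, but the peaks were 1087 bp apart. NTT replicate 1 gave a summit at −681 bp with a fold enrichment of 3.95 (percentile 9.05), and NTT replicate 2 gave one at −1768 bp with 4.16 (percentile 60.2). Neither was repeated in the other library. The site of replicate 2 held 2 G-boxes (CACGTG, a core site of bHLH and bZIP proteins), the nearer 17 bp from the summit, and is shown with them in capitals as the only site of these genes with a pair.
TCP2, chr4:10167311-10167411, minus strand, −1828 to −1728 bp: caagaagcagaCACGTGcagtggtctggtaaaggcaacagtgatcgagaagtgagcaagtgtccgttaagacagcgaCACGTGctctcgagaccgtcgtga

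TCP3 (chr1:19849788-19851725, minus strand), the remaining miR319 target and which acts redundantly with TCP4, had no peak in any library. The nearest summits outside its window were that of TT1, 1139 bp past the gene end and those of NTT replicates 1 and 2 at −5598 and −5589 bp. Its window of 3938 bp was of the usual size, the 8 windows having a median of 4106.5 bp and all protein-coding genes one of 4078 bp.

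TCP13 (chr3:390720-392767, plus strand), listed in RefSeq under its synonym PTF1, had more peaks than any other of the 8 genes, 7 of the 21. It belongs to the group without a miR319 site. The farthest of its sites was seen in all 3 libraries, at −1855 bp in TT1 (fold enrichment 4.21, percentile 56.6), −1856 bp in NTT replicate 1 (6.98, percentile 66.8) and −1862 bp in NTT replicate 2 (4.41, percentile 69.5). The 3 summits thus lay within 7 bp and all were above the median of their library.

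A second site upstream of TCP13 was seen at −698 bp in TT1, with a fold enrichment of 5.05 (percentile 75), and at −703 bp in NTT replicate 1, with 7.28 (percentile 70.1). This was the strongest peak of the 8 genes in TT1, and NTT replicate 2 had no peak there. In the 5′ UTR, TT1 had a summit at +252 bp with 2.58 (percentile 2.05), near the weakest of that library, and NTT replicate 1 one at +115 bp with 5.12 (percentile 34.9). The 2 peaks overlapped while their summits were 137 bp apart.

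The far site of TCP13 lies closer to another start. The nearest annotated TSS is that of the long non-coding RNA AT3G01095, 660 to 667 bp from the 3 summits. That gene ends 2260 bp before the TSS of TCP13, so the site lies past its end, between it and TCP13. The assignment to TCP13 rests on the 2 kb window. The site is shown because it was the most precisely repeated of those seen in all 3 libraries, with its 2 ABRE cores (ACGTG, a core of abscisic acid response elements) in capitals, the nearer 45 to 52 bp from the summits. The second site is shown after it, in lower case, since no motif searched here fell in it.
TCP13, chr3:388789-388939, plus strand, −1931 to −1781 bp: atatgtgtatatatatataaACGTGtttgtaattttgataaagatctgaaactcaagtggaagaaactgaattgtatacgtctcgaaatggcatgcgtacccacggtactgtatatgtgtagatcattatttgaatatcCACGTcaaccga
TCP13, chr3:389977-390057, plus strand, −743 to −663 bp: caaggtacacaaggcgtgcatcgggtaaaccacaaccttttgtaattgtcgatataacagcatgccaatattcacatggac

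TCP5 (chr5:24535337-24537244, minus strand), whose product restrains growth of petals and leaf margins, had 1 peak. It was in NTT replicate 2, at −822 bp, with a fold enrichment of 4.30 (percentile 65.5), and none of the motifs fell within 100 bp. The larger list of NTT replicate 1 had no summit in the window, and its nearest summits were at −6177 bp and at 2134 bp past the gene end.

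TCP17 (chr5:2584358-2586035, plus strand), which acts with TCP5 and TCP13, had no peak. All 3 libraries had a summit beyond its end, at +3735, +3675 and +3659 bp, which is 1982 to 2058 bp past the gene. TCP17 and TCP3 were thus the 2 genes without a peak, 1 from each group.

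Over the 8 windows, the farthest summits inside were those of TCP13 at −1862 bp and TCP2 at −1768 bp, and the closest summit upstream of a window was that of NTT replicate 1 at −2352 bp of TCP13, with a fold enrichment of 5.41. Past a gene end, the closest was that of NTT replicate 1 at 638 bp past TCP4. With a window of 1 kb upstream, TCP2 and TCP13 were no longer among the genes with a peak in both NTT libraries, which left 3 of 8. NTT replicate 2 then had a peak at 4 of 8. The share of all genes with this shorter window is not given here, so these counts have none to be set against.

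**Figure D2:**
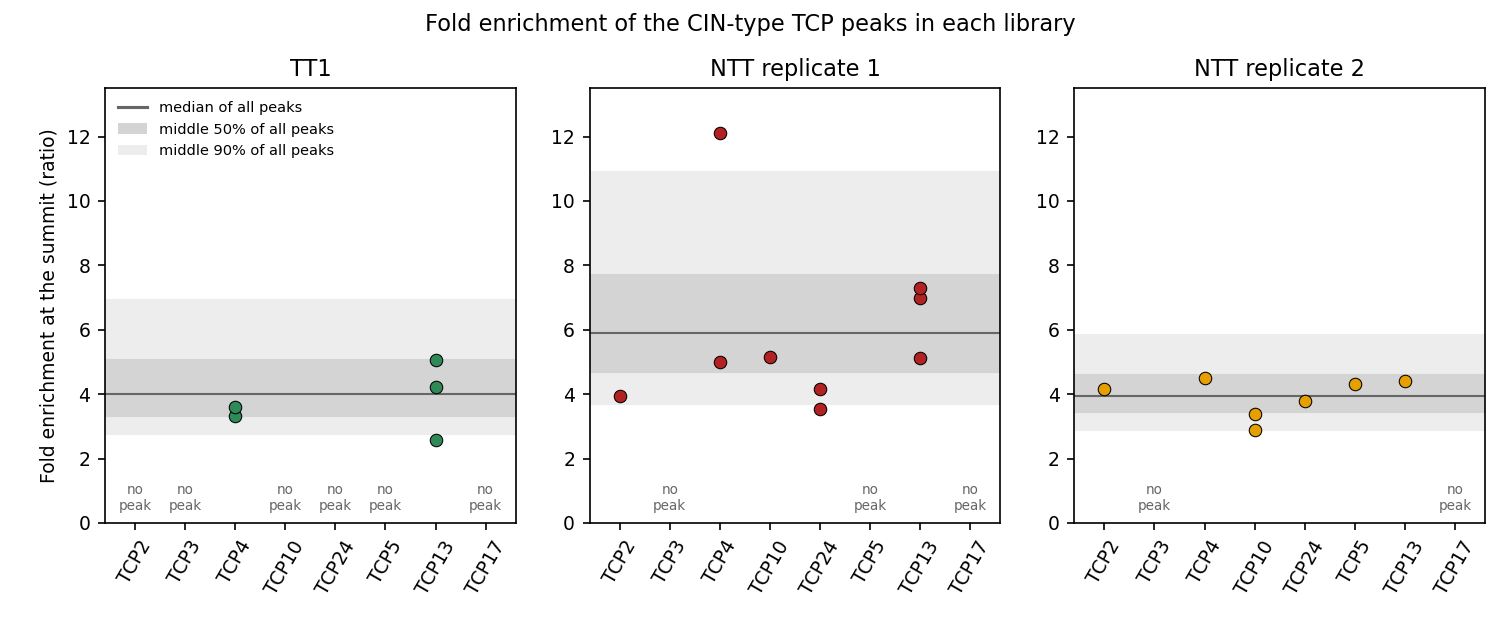
Fold enrichment at the summit (y axis, a ratio starting at 0) of each peak at the 8 CIN-type TCP genes, 1 panel per library, with the median of all peaks as a line and the middle 50% and 90% of all peaks as grey bands. The TCP4 peak of NTT replicate 1 at 12.1 lies above the middle 90%, and the other peaks lie within or below it.

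Most peaks at these genes lay within the range of fold enrichments that the other peaks of their library covered. The strongest peak per gene had a median fold enrichment of 4.33 over the 2 genes with a TT1 peak, 5.16 over the 5 with a peak of NTT replicate 1 and 4.23 over the 6 with a peak of NTT replicate 2. Their median percentiles were 55.8, 35.9 and 62.8. All protein-coding genes with a peak had median percentiles of 57, 58.9 and 51.6, with median fold enrichments of 4.22, 6.44 and 3.97.

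The repeat of summit positions between libraries was set beside that over all genes, as the replicate error that the lists hold. Of the 9 peaks of NTT replicate 1, 4 (44.4%) had a summit of NTT replicate 2 within 100 bp, against 36.9% over all protein-coding genes. Of the 7 of NTT replicate 2, 4 (57.1%) had a summit of replicate 1, against 76.8%. For TT1, 3 of 5 (60%) had one of NTT replicate 1, against 63.7%, and 2 of 5 (40%) one of NTT replicate 2, against 36.7%. Taken from the NTT side, 3 of 9 peaks of replicate 1 (33.3%) had a TT1 summit within 100 bp, against 49.4%, and 2 of 7 of replicate 2 (28.6%), against 59.1%.

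The miR319 site divides the 8 genes, and its position was compared with the peaks. Mature miR319 sequences were read from the assembly at the annotated records and share a seed, bases 2 to 8, in capitals.
ath-miR319a (chr4:12353109-12353129, plus strand) and ath-miR319b (chr5:16660469-16660489, minus strand): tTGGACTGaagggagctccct
ath-miR319c (chr2:17029870-17029890, plus strand): tTGGACTGaagggagctcctt
The best ungapped complement of miR319a in the 5 target genes, with G·U pairs counted as mismatches, lay in a coding exon and is shown 5′ to 3′ with bases that pair with the microRNA in capitals.
TCP2, chr4:10163402-10163422, minus strand: caGGgGgaCCCTTCAGTCCAA
TCP3, chr1:19850522-19850542, minus strand: gaGGgGtcCCCTTCAGTCCAt
TCP4, chr3:5063300-5063320, plus strand: gaGGgGtcCCCTTCAGTCCAg
TCP10, chr2:13221210-13221230, minus strand: AaGGgGtaCCCTTCAGTCCAg
TCP24, chr1:10628989-10629009, minus strand: taGGgGgaCCCTTCAGTCCAA
These sites had 5 or 6 mismatches and paired with the whole seed. In TCP5, TCP13 and TCP17 the best match had 9, 9 and 8.

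No summit fell on a miR319 site. The nearest was 567 bp away in TCP24, 812 bp in TCP10, 1327 bp in TCP4 and 2852 bp in TCP2. By group, 4 of the 5 miR319 targets and 2 of the 3 other genes had a peak in any library, against 52.1% of all genes. TT1 had a peak at 1 gene of each group, against 38.3% of all genes. With groups of this size, a difference between them was not tested.

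Motifs were counted within 100 bp of each summit, on both strands. GAGAGAG occurred at 8 of 21 summits: 1 of 5 of TT1, 4 of 9 of NTT replicate 1 and 3 of 7 of NTT replicate 2. Over all peaks of these libraries the shares were 16.0%, 21.5% and 26.1%, and 6.37% of all protein-coding genes had a match in the 201 bp ending at the TSS. That stretch lies upstream, as do the promoters below, whereas of the 8 summits only that of TCP2 lay upstream. The share of promoters is therefore not of the same region. The 8 summits belonged to 4 genes, TCP2, TCP4, TCP10 and TCP24, and those of 1 site share their matches.

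The GAGA repeat also occurred where there was no peak. Within 400 bp of the TSS, a distance chosen after the data had been seen, 6 of the 8 genes had a match, against 39.3% of all protein-coding genes. These included TCP3 and TCP17, which had no peak, and TCP2, whose peaks lay elsewhere. In that stretch, the longest alternating GA or CT run was 8 to 10 bp in all of these but TCP10. TCP5 and TCP13 had no match in their whole windows, although TCP13 had the most peaks.

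**Figure D3:**
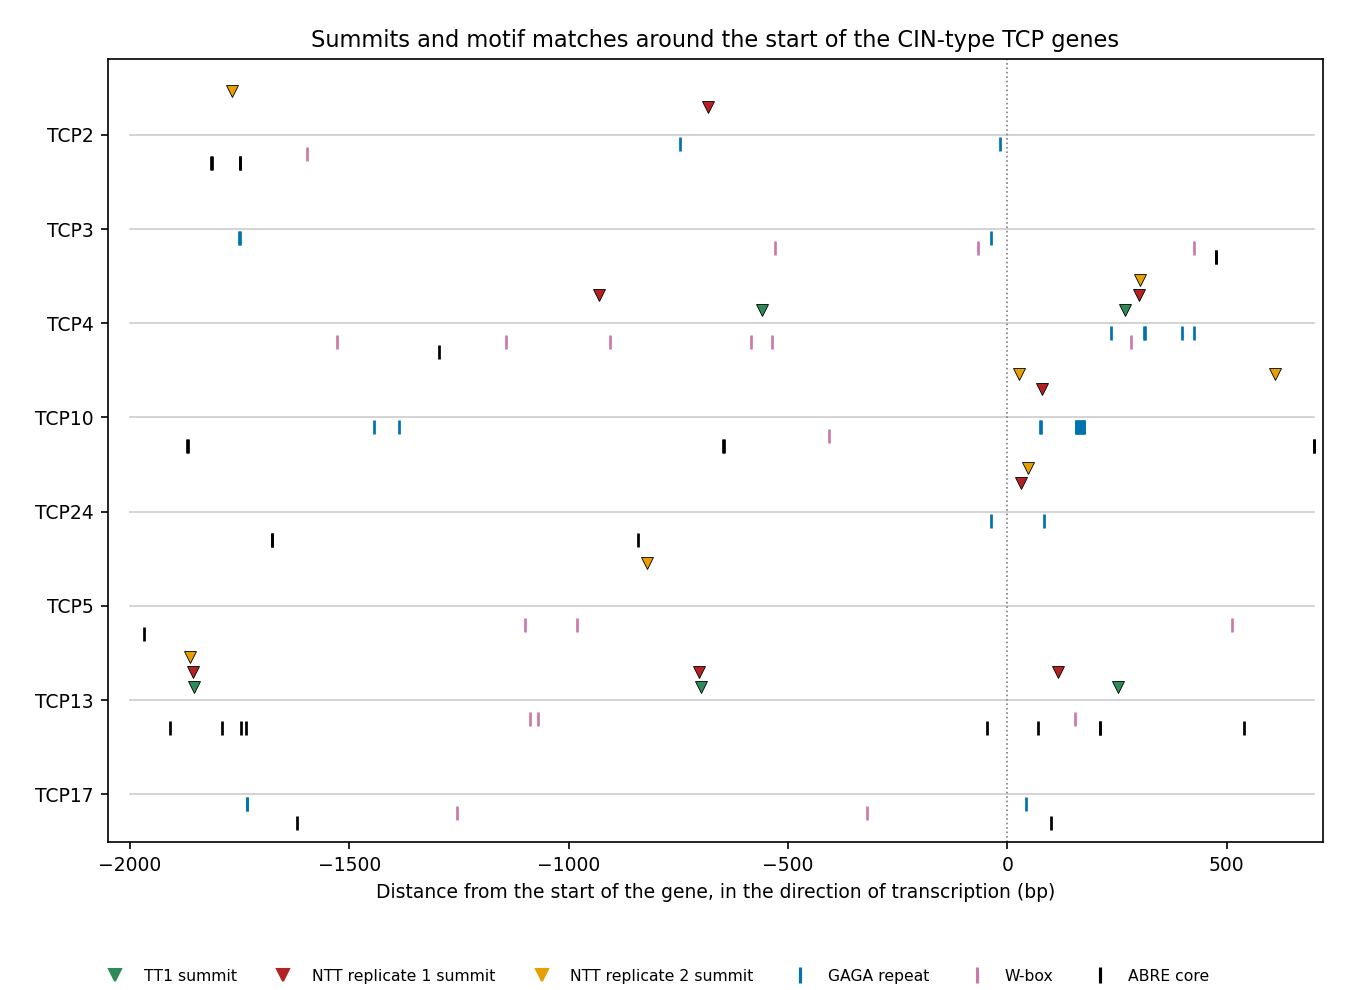
Summits (triangles, by library) and matches of 3 motifs (ticks) around the start of the 8 CIN-type TCP genes, with distance from the start of the gene in bp on the x axis, shown to +700 bp. GAGA repeats lie beside the NTT summits of TCP4, TCP10 and TCP24, and also near the starts of TCP2, TCP3 and TCP17, where no summit fell within 400 bp.

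The W-box, the core site of WRKY proteins (searched as TTGACC or TTGACT), occurred at 7 of 21 summits. By library it was at 3 of 5, 3 of 9 and 1 of 7 summits of TT1 and NTT replicates 1 and 2, against 31.8%, 28.1% and 27.2% of all peaks and 24.3% of promoters of the same length. The 7 summits were at TCP4 and TCP13 alone, and neighbouring summits of different libraries shared a match. At TCP4 a W-box lay 12 bp from the TT1 summit in the leader and 16 and 17 bp from those of NTT. The TT1 site upstream of TCP4 is shown, with its 2 W-boxes in capitals, the nearer 20 bp from the summit.
TCP4, chr3:5061083-5061163, plus strand, −598 to −518 bp: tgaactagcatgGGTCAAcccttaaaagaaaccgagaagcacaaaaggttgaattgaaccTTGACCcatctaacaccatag

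The ABRE core (ACGTG) occurred at 7 of 21 summits and the G-box, which contains it, at 4 of these. For the ABRE core the counts were 2 of 5, 2 of 9 and 3 of 7 in TT1 and NTT replicates 1 and 2, against 29.0%, 25.5% and 35.1% of all peaks and 19.9% of promoters. For the G-box they were 1 of 5, 1 of 9 and 2 of 7, against 9.91%, 7.37% and 15.5% of all peaks and 5.66% of promoters. Of these 7 summits, 5 were at TCP13, in the far site and the 5′ UTR.

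Sites for TCP proteins themselves were searched as GTGGNCCC and as the shorter GGNCCC, which the former contains. At the 21 summits there was 1 match, at the weak coding-exon peak of TCP10. The shorter form occurred near 11.8%, 9.05% and 16.7% of all peaks and in 6.51% of promoters, and the longer near 2.5% of all peaks of NTT replicate 2 and in 0.627% of promoters.

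**Figure D4:**
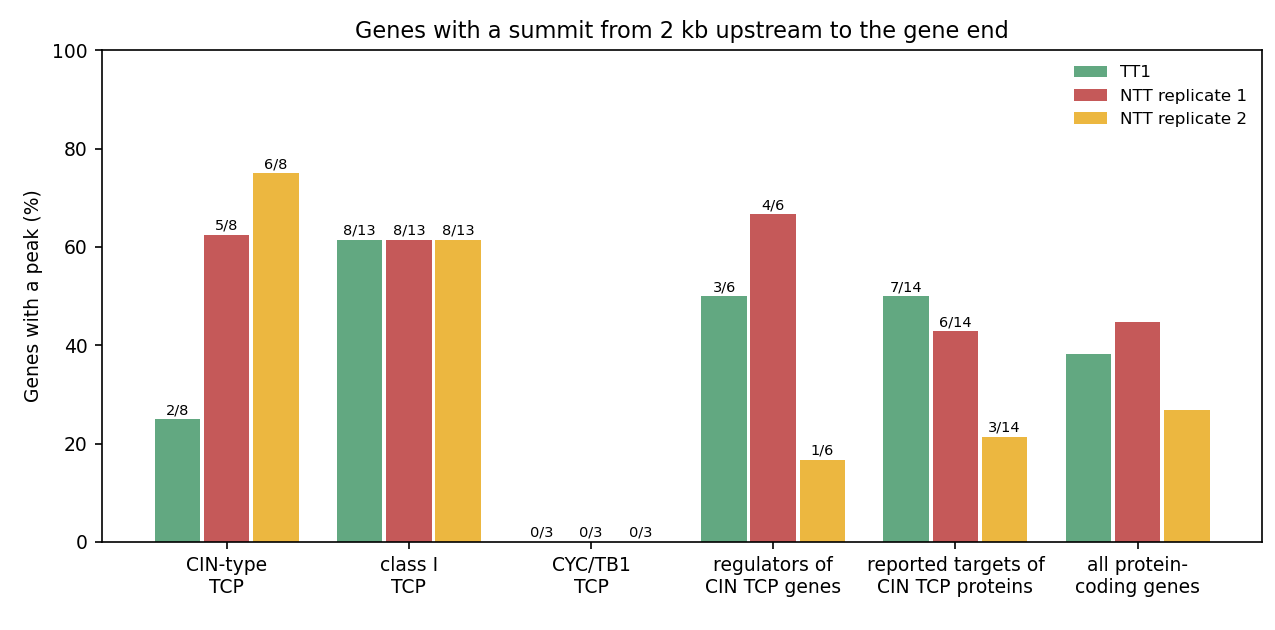
Percent of genes with a peak (y axis, from 0) in each list and over all protein-coding genes, with bars by library and the number of genes with a peak over the number in the list above each bar. Of the CIN-type genes 2, 5 and 6 of 8 had a peak in TT1 and NTT replicates 1 and 2, while class I TCP genes stood at 8 of 13 in each library and CYC/TB1 genes at 0 of 3.

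The other branches of the TCP family were set beside the CIN-type genes. Class I TCP genes, whose products mostly promote cell proliferation, had a peak at 8 of 13 (61.5%) in each library, against 38.3%, 44.7% and 26.8% of all genes in TT1 and NTT replicates 1 and 2. In all 3 libraries 7 of 13 (53.8%) had one, compared with 2 of 8 CIN-type genes and 20.2% of all genes. Their strongest peaks had median percentiles of 87.1, 84.7 and 70.4 in TT1 and NTT replicates 1 and 2, all above those of the CIN-type genes. TCP14, which promotes seed germination, led with a mean percentile of 95.9, followed by TCP7 (93.9), TCP23 (85.8) and TCP9 (76.3), and the other 3 of the 7 were at 53.9 to 68.9. TCP4 and TCP13, at 68.9 and 71.5, fell within the range of these 7 genes. The mean takes the strongest peak of each library, and these can lie at different places. In TT1 and NTT replicates 1 and 2 they were at −698, −703 and −1862 bp of TCP13 and at −793, −75 and +1403 bp of TCP23. TCP6, TCP11, TCP15 and TCP20 had no peak. The difference between the branches was not tested.

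The CYC/TB1 genes TCP1, TCP12 and TCP18, the other class II genes, which act in branching and flower shape, had no peak in any library. In the single TT1 library, 8 of 13 class I, 2 of 8 CIN-type and 0 of 3 CYC/TB1 genes had a peak, against 38.3% of all genes. The NTT libraries did not separate the first 2 groups in this way. There, 61.5% of class I genes had a peak in each replicate, beside 62.5% and 75% of CIN-type genes in replicates 1 and 2.

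Known regulators of CIN-type TCP genes or proteins had a peak at 3, 4 and 1 of 6 genes in TT1 and NTT replicates 1 and 2, respectively, against 38.3%, 44.7% and 26.8% of all genes. With 6 genes, these counts lay close to the shares of all genes. AS2, a leaf polarity factor that acts with TCP proteins on KNOX genes, had peaks in all 3 libraries, at −953, −967 and −958 bp, with fold enrichments of 2.96, 7.61 and 4.04. MIR319A and MIR319B had none. The records of the microRNA genes are short (MIR319A: chr4:12352956-12353131), so their windows hold little beyond the 2 kb upstream. All protein-coding genes had a median window of 4078 bp, so the shares above are of longer windows. MIR319C, named after its values were seen, had a TT1 summit at −1437 bp (3.55) and an NTT replicate 1 summit at −1827 bp (7.87), which are separate places. Within their short windows, the genes of the microRNA were therefore without a peak in NTT replicate 2.

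Of 14 reported targets of CIN-type TCP proteins, 7, 6 and 3 had a peak in TT1 and NTT replicates 1 and 2, which is 50%, 42.9% and 21.4%, against the 38.3%, 44.7% and 26.8% of all genes given above. HEC1, a bHLH factor of carpel development, and KRP1, an inhibitor of cyclin-dependent kinases, had peaks in all 3 libraries, with mean percentiles of 54.3 and 73.0. HEC1 was at percentiles 89.4, 68.2 and 5.49 in TT1 and NTT replicates 1 and 2. The boundary genes CUC2 and CUC3, the leaf factor AS1, the auxin synthesis gene YUC5 and the flowering gene CO had none. With 14 genes, these counts lay close to the shares of all genes. The microRNA genes in this list again had short records, and so shorter windows than most protein-coding genes.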

How the data were processed

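ChIP-seq of TT1 and NTT, each fused to GFP, gave 3 ChIP and 3 input libraries, grouped by their sample labels, with single-end reads of 50 nt. According to the methods and the submitters' processing notes, the authors mapped reads with BWA to TAIR10, used FastQC, SAMtools and Picard, which removed duplicates, and called peaks with MACS2 version 2.1.2 for each ChIP library without pooling; other versions are not given in the sources used here. The deposited peak lists hold, per peak, a score (the authors' −log10 q-value times 10, without decimals), the authors' fold enrichment as a ratio at the summit, −log10 p- and q-values at the summit, and the offset of the summit from the peak start in bp. Inputs have no list analysed here, and library depth is unknown, so counting intervals were not possible.

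Summits were placed with Python 3.11.15 on the TAIR10.1 assembly and its RefSeq annotation, and 0 peaks ended past their chromosome. The TSS was the 5′ end of the gene record. Percentiles were computed within a library. The placement of summits was tested on simulated data. No p-value was computed. All 8 members with every peak are named, and of the other lists those with peaks in all 3 libraries (up to 4 by mean percentile) or with none. The members and lists were chosen with earlier results of these data known. Alternatives changed the window, the TSS, the q threshold, the number of peaks, the distance between summits and the motif window.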

Additional observations from a re-analysis of the deposited data

How the results depend on the processing

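Of 39 counts of CIN-type TCP genes with a peak under other settings, 31 stayed within 1.5 times the value reported. Among these is the count of NTT replicate 2 with lists of equal length, which could not change. The counts without either NTT replicate are also among them, and these could not fall. With a summit from 1 kb upstream, and also with the nearest-TSS rule (peak center from −1500 to +1000 bp), the genes with peaks in both NTT libraries numbered 3 and those in all 3 libraries 1, since the far sites of TCP2 and TCP13 were left out. NTT replicate 2 had 4 genes under either rule. The shares of all genes under these rules are not given here. With a −log10 q of at least 20, NTT replicate 1 had 3 genes, against 41.1% of all genes, and both NTT libraries 2, against 15.8%. When every list was limited to its 7447 most significant peaks, NTT replicate 1 had 2, against 25.1%, and both NTT libraries 2, against 18.5%. Without NTT replicate 1 the count for NTT was 6 genes, and without replicate 2 it was 5, each the count of the remaining library. For NTT and TT1 together it was 2 in both cases. Leaving a library out of a count of shared genes can only hold or raise it, so these values do not test the result. The share of all genes with a peak stayed within 1.5 times in 10 of 10 cases; a background of 12617 genes with windows of the members' lengths, chosen after seeing the data, gave 42.7%, 49.2% and 30% for TT1 and NTT replicates 1 and 2. Within 50 bp of the summit, the GAGA repeat was found at 5 peaks, the ABRE core at 4 and the G-box at 2. The shares of all peaks at this distance are not given here. No paired analysis was possible because the inputs, which share replicate numbers with the NTT ChIP libraries, have no peak list analysed here and TT1 has 1 library. TT1 has no replicate, so its counts carry no error, and genes without a peak may have signal below the threshold of the peak caller.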
